A study of Rattus norvegicus with 8 samples.

Results

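The Toll-like receptor genes Tlr1, Tlr2, Tlr3, Tlr4, Tlr5, Tlr6, Tlr7, Tlr8, Tlr9 and Tlr13 were examined in rat peritoneal macrophages, 10 of the 23487 genes of the deposited count table. Of these, 9 were found by their symbol. Tlr13 was found through the RefSeq gene table, which lists the clone-based name of its row, AABR07039446.2 (ENSRNOG00000061403), as an older name of this gene. Macrophages were sorted by flow cytometry from the peritoneal lavage of female Wistar rats, 8 weeks old, at 15 days after intraperitoneal injection of 2 mg of multi-walled carbon nanotubes. The 4 CNT-7 rats (numbered 3, 5, 10 and 11 in the labels) received the needle-like, mesotheliomagenic MWCNT-XNRI-7, and the 4 CNT-T rats (numbered 1, 2, 12 and 13) received a tangled, non-mesotheliomagenic nanotube. Both particles had been heated to remove endotoxin, the classical ligand of Tlr4, and all rats received them in the same protein-containing saline. Untreated rats were not analysed here, so that each difference is one between both particles. The totals were 27394995 to 30215063 counts in the CNT-7 rats and 27195157 to 33732981 in the CNT-T rats.

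Toll-like receptors are membrane proteins that bind conserved microbial molecules, and some of them also bind material released by damaged cells. Tlr1, Tlr2, Tlr4, Tlr5 and Tlr6 act mainly at the cell surface, where Tlr2 pairs with Tlr1 or Tlr6 to bind lipopeptides, Tlr4 binds lipopolysaccharide and Tlr5 binds flagellin. Tlr3, Tlr7, Tlr8, Tlr9 and Tlr13 act in endosomes, as a group of receptors for nucleic acids, and need Unc93b1 to get there. Most of them signal through the adaptor Myd88, Irak kinases and Traf6 to NF-kappaB, and Tlr3 uses the adaptor Ticam1.

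Of the 10 genes, 9 passed the filter on low counts and were tested. Tlr13, Tlr2 and Tlr8 were significantly higher and Tlr1 was significantly lower after CNT-7 than after CNT-T, at an adjusted p-value under 0.10 (quasi-likelihood test of edgeR, Benjamini-Hochberg adjustment over all genes). These 4 of 9 genes stood against a background of 27.9% of the 12124 genes tested, 13.9% being higher and 14.0% lower in CNT-7. The groups of 4 rats did not overlap for Tlr13, Tlr2 and Tlr1, whereas they did not overlap in 24.9% of all genes tested. The median log2 fold change of the 9 genes was -0.039, against 0.0083 for all genes, and their median absolute log2 fold change was 0.33, against 0.19 for all genes. None of the 9 reached a 2-fold change. Fewer cells of a type and less RNA per cell cannot be told apart in such sorted bulk samples.

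**Figure D1:**
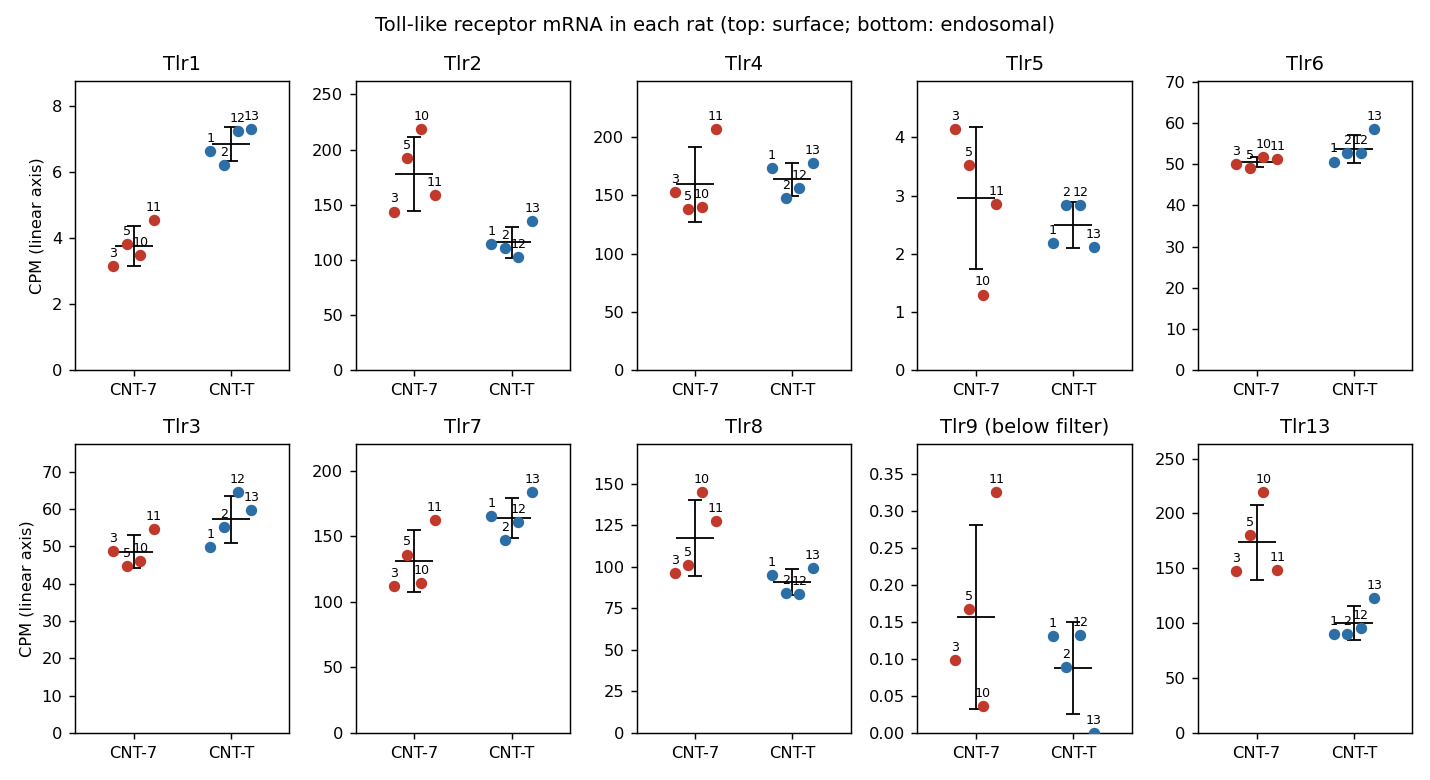
Level of each Toll-like receptor gene in CPM (counts scaled to a library of 1000000 counts, linear axes from 0), with 1 point per rat, the rat number beside it, and black marks for the mean ± SD of 4 rats. Tlr2 and Tlr13 lay higher and Tlr1 lay lower in all CNT-7 rats than in any CNT-T rat, and Tlr9 had at most 9 counts in any rat.

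The RefSeq sequences around the transcription starts of Tlr2, Tlr13 and Tlr1, the 3 genes that were significant in all 13 alternative fits, are printed here from 250 bases before to 50 bases after the start (assembly GRCr8, 5′ to 3′ on the strand of the gene) and show which of the letters searched for lie near the start. Capitals mark GAGGAA, the core bound by the myeloid factor PU.1, and a form of the NF-kappaB motif (GGGA, any base, TT, any base, CC), each on either strand.
Tlr2, chr2:171504508-171504807, minus strand: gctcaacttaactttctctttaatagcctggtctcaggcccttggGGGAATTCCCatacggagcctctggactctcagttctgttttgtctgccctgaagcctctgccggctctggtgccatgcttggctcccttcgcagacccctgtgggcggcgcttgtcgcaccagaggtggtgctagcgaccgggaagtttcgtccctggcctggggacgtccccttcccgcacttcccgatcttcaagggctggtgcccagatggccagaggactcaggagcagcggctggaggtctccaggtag
Tlr13, chrX:75285582-75285881, plus strand: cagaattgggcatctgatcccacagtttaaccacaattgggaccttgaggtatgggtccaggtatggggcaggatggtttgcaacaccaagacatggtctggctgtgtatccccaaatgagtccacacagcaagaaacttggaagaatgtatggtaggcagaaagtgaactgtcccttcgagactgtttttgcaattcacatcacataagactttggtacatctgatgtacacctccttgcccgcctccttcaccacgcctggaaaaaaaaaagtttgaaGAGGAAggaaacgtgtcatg
Tlr1, chr14:43747571-43747870, plus strand: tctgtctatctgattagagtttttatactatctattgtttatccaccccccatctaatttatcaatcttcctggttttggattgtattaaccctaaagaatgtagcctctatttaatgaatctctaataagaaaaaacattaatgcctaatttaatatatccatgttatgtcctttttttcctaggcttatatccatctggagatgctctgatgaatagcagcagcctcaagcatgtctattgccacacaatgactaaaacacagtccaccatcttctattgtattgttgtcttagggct

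The Tlr2 sequence held 1 NF-kappaB match, which reads the same on both strands and begins at position -205 from the start. The Tlr13 sequence held 1 GAGGAA, 31 bases after the start, and the Tlr1 sequence held neither motif. In all 33465 promoters of this length, GAGGAA was found in 27.6% and the NF-kappaB motif in 1.11%. Of the 10 Toll-like receptor promoters, 7 held GAGGAA (all except Tlr1, Tlr2 and Tlr5) and 1 held the NF-kappaB motif. The core of the interferon-stimulated response element (GAAA, any 2 bases, GAAA) was found in 0 of the 10 and in 3.92% of all promoters. TGANTCA, the AP-1 site, was found in Tlr9 and in 7.33% of all promoters. These matches are letters in a window, and no binding or start site was measured in these samples.

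Among the surface receptors, Tlr2 (ENSRNOG00000009822) was higher after CNT-7. Its level was 144, 192, 218 and 159 CPM in CNT-7 rats 3, 5, 10 and 11, and 115, 111, 103 and 135 CPM in CNT-T rats 1, 2, 12 and 13. The lowest CNT-7 rat was thus above the highest CNT-T rat, and CNT-7 rat 10 was the highest of all. On average, CNT-7 rats had 178 ± 33.6 CPM and CNT-T rats 116 ± 13.7 CPM (SD, n = 4 each). This 1.54-fold rise corresponds to 0.62 on the log2 scale (standard error 0.14, adjusted p = 0.011, edgeR). Fits without 1 of the 8 rats gave 0.51 to 0.71.

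Tlr1 (ENSRNOG00000038722), a partner of Tlr2 for triacylated lipopeptides, moved the other way. It had 3.15, 3.82, 3.50 and 4.56 CPM in CNT-7 rats 3, 5, 10 and 11, and 6.65, 6.21, 7.25 and 7.30 CPM in CNT-T rats 1, 2, 12 and 13. All CNT-7 rats were below all CNT-T rats, with CNT-7 rat 11 the nearest to them. On average, CNT-7 rats had 3.76 ± 0.60 CPM and CNT-T rats 6.85 ± 0.52 CPM (SD, n = 4 each). The difference was -0.87 on the log2 scale (standard error 0.15, adjusted p = 0.0036, edgeR), which is the largest absolute change among the 9 tested genes. The values rest on between 96 and 220 counts per rat.

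The other partner of Tlr2, Tlr6 (ENSRNOG00000002161), which serves diacylated lipopeptides, had 50.2, 49.1, 51.9 and 51.2 CPM in CNT-7 rats 3, 5, 10 and 11. In CNT-T rats 1, 2, 12 and 13 it had 50.7, 52.8, 52.8 and 58.5 CPM, and the groups overlapped. Its log2 fold change was -0.086, with a 95% confidence interval from -0.23 to 0.059 (adjusted p = 0.40, edgeR). Tlr6 and Tlr1 are related receptors and lie next to each other on chromosome 14 in RefSeq. The division of reads between them by the quantification may be uncertain, which was not tested. Tlr1 counts divided by Tlr6 counts gave 0.063 to 0.089 after CNT-7, against 0.12 to 0.14 after CNT-T. Tlr2 counts divided by Tlr1 counts gave 34.8 to 62.4 after CNT-7, against 14.2 to 18.5 after CNT-T. These ratios depend on transcript length and are compared only between rats. They restate the differences of Tlr1 and Tlr2 given above and are no separate result.

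Tlr4 (ENSRNOG00000010522) had 153, 138, 140.0 and 207 CPM in CNT-7 rats 3, 5, 10 and 11, and 174, 148, 156 and 177 CPM in CNT-T rats 1, 2, 12 and 13. CNT-7 rat 11 was the highest and CNT-7 rats 5 and 10 were the lowest of all 8 rats, so that the CNT-T rats lay within the range of the CNT-7 rats. On the log2 scale the difference was -0.039, with a 95% confidence interval from -0.34 to 0.26 (adjusted p = 0.87, edgeR). Its sign turned without CNT-7 rat 5 (0.022) or CNT-7 rat 10 (0.019). Tlr5 (ENSRNOG00000022067), the flagellin receptor, had between 36 and 126 counts per rat. It was at 4.14, 3.52, 1.30 and 2.86 CPM in CNT-7 rats 3, 5, 10 and 11, and between 2.11 and 2.84 CPM in the CNT-T rats. The CNT-7 rats thus lay on both sides of the CNT-T rats. The log2 fold change of 0.25 had a 95% confidence interval from -0.47 to 0.96 (adjusted p = 0.64, edgeR). It was 0.039 without CNT-7 rat 3 and 0.49 without CNT-7 rat 10.

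Among the endosomal receptors, Tlr13, which binds bacterial ribosomal RNA in rodents, was higher after CNT-7. It had 148, 180.3, 219.6 and 148 CPM in CNT-7 rats 3, 5, 10 and 11, and 90.5, 90.2, 95.8 and 123 CPM in CNT-T rats 1, 2, 12 and 13. The groups did not overlap, and CNT-T rat 13 was the nearest to the CNT-7 rats. On average, CNT-7 rats had 174 ± 34.1 CPM and CNT-T rats 99.8 ± 15.6 CPM (SD, n = 4 each). The rise was 0.80 on the log2 scale (standard error 0.15, adjusted p = 0.0055, edgeR), the largest rise among the 9 tested genes, and fits without 1 of the 8 rats gave 0.67 to 0.91.

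Tlr8 (ENSRNOG00000045992) is described in humans as a sensor of single-stranded RNA. It had 96.6, 101, 145 and 128 CPM in CNT-7 rats 3, 5, 10 and 11, and 94.9, 84.5, 83.7 and 99.5 CPM in CNT-T rats 1, 2, 12 and 13. CNT-7 rats 10 and 11 were above all CNT-T rats, whereas CNT-7 rat 3 was within their range and CNT-7 rat 5 just above it. The rise was 0.38 on the log2 scale (standard error 0.13, adjusted p = 0.075, edgeR). This call was lost without CNT-7 rat 10 (adjusted p = 0.16), CNT-7 rat 11 (0.14), CNT-T rat 1 (0.101), CNT-T rat 2 (0.17) or CNT-T rat 12 (0.18, all from edgeR), and the log2 fold change was lowest, at 0.26, without CNT-7 rat 10.

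Tlr7 (ENSRNOG00000004249) senses single-stranded RNA and lies next to Tlr8 on the X chromosome in RefSeq. It had 112, 136, 114 and 162 CPM in CNT-7 rats 3, 5, 10 and 11, and 165, 147, 161 and 184 CPM in CNT-T rats 1, 2, 12 and 13. CNT-7 rats 3, 5 and 10 were below all CNT-T rats, and CNT-7 rat 11 was among them. The log2 fold change was -0.33 (standard error 0.13), and its adjusted p = 0.1002 (edgeR) just missed the threshold. It passed without CNT-7 rat 11 (log2 fold change -0.44, adjusted p = 0.016), with upper-quartile normalization (adjusted p = 0.092), with DESeq2 (adjusted p = 0.061) and with a term for the range of the rat numbers (adjusted p = 0.098). The ratio of Tlr8 counts to Tlr7 counts was 0.86, 0.74, 1.27 and 0.79 in CNT-7 rats 3, 5, 10 and 11, and 0.57, 0.58, 0.52 and 0.54 in CNT-T rats 1, 2, 12 and 13. In every CNT-7 rat this ratio was above that of every CNT-T rat, although the groups overlapped for each gene on its own. It sets the higher estimate of Tlr8 over the lower estimate of Tlr7 from the same counts, and is no separate result. The ratio was not among the planned comparisons, and the share of other gene pairs that separate in this way was not computed.

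Tlr3 (ENSRNOG00000021726), the receptor of double-stranded RNA, had 48.9, 44.8, 46.1 and 54.7 CPM in CNT-7 rats 3, 5, 10 and 11, and 49.9, 55.2, 64.6 and 59.8 CPM in CNT-T rats 1, 2, 12 and 13. The groups overlapped through CNT-7 rat 11 and CNT-T rat 1. The difference on the log2 scale was -0.24 (standard error 0.096, adjusted p = 0.11, edgeR), and the threshold was passed without CNT-7 rat 11 (adjusted p = 0.057), without CNT-T rat 1 (0.053) and with a term for the range of the rat numbers (0.080, all from edgeR). Tlr9 (ENSRNOG00000048161), the receptor of unmethylated CpG DNA, had 3, 5, 1 and 9 counts in CNT-7 rats 3, 5, 10 and 11, and 4, 3, 4 and 0 counts in CNT-T rats 1, 2, 12 and 13. It was below the filter and was not tested. A count of 3, taken as the floor, amounted to 0.0887 to 0.109 CPM. With at most 9 counts in any rat, a small difference of Tlr9 could not have been detected at this depth. Of the other rodent receptors, Tlr11 had between 0 and 18 counts and Tlr12 between 0 and 13 counts per rat, and neither was tested.

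**Figure D2:**
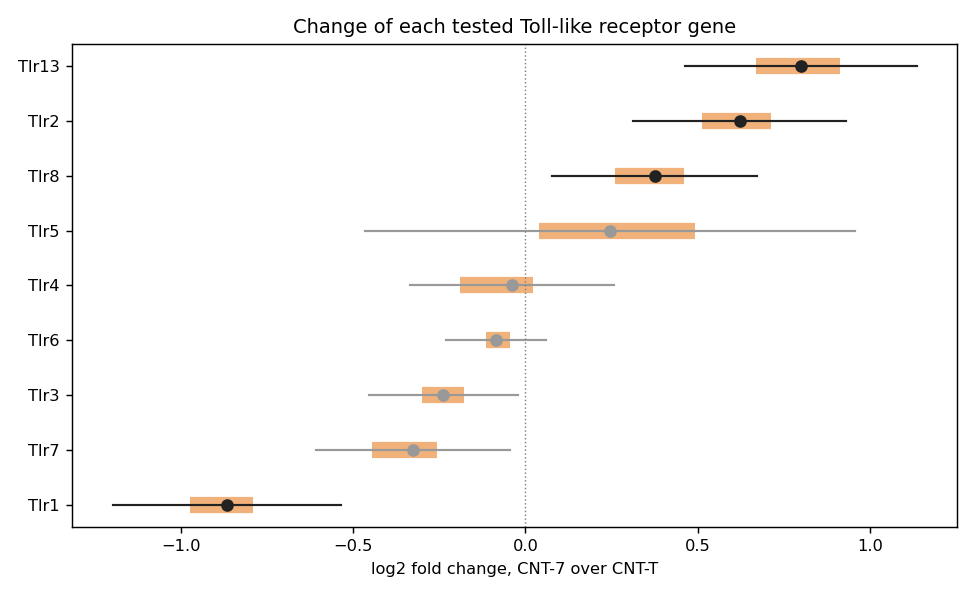
Log2 fold change (CNT-7 against CNT-T) of the 9 tested Toll-like receptor genes, with points for the estimate (black when the adjusted p-value is under 0.10, grey otherwise), thin lines for the 95% confidence interval and orange bars for the range when each rat is left out in turn. Tlr13, Tlr2 and Tlr8 lie above 0 and Tlr1 below it, and the orange bar of Tlr4 crosses 0.

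The lowest 10% of all tested genes lay below a log2 fold change of -0.51 and the highest 10% above 0.53. Tlr13 and Tlr2 were in the highest and Tlr1 in the lowest of these shares, and the other 6 genes lay between them. The profiles were also compared over the 8 rats by the root mean square difference of log2 CPM, after each gene was centred on its own mean. The members most alike by this measure were Tlr2 and Tlr13, with a difference of 0.12, followed by Tlr6 and Tlr3 with 0.13. The members least alike were Tlr1 and Tlr13, with 0.87. CNT-7 rat 10 had the highest level of Tlr2, Tlr8 and Tlr13 and the lowest of Tlr5. CNT-7 rat 11 had the highest level of its group for Tlr1, Tlr3, Tlr4 and Tlr7.

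**Figure D3:**
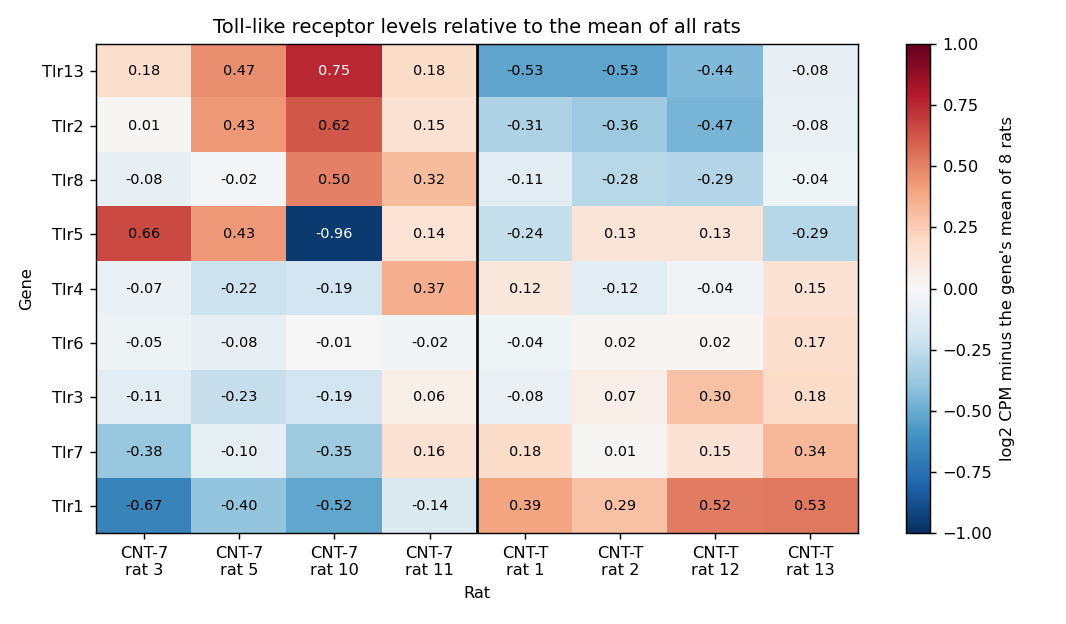
Log2 CPM of the 9 tested genes (rows) in each rat (columns), minus the gene's mean of 8 rats, with the value printed in each cell and a black line between the groups. CNT-7 rat 10 stands at 0.75 for Tlr13, 0.62 for Tlr2 and 0.50 for Tlr8, and CNT-7 rat 11 stands at 0.37 for Tlr4.

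By the same measure, the genes most like Tlr1 among 10155 named genes were Slc9a9 (0.047), Tubb2a (0.078), Mbnl3 (0.098), Ncoa7 (0.11) and Il15ra (0.11), whose median over all these genes was 0.49. Their log2 fold changes were between -0.96 and -0.76. Those most like Tlr4, the member with the most counts, were Ptprj (0.091), Renbp (0.091), Usp25 (0.095), Mmab (0.0998) and Atp9b (0.103), with a median over all these genes of 0.26. Their log2 fold changes were between -0.075 and 0.025.

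The rest of the pathway was described from a list of 86 genes by role, of which 71 were tested. There 15 genes were significantly higher and 4 significantly lower after CNT-7, which is 26.8% of the 71 and near the 27.9% of all genes. The median log2 fold change of the 71 genes was 0.064. The other 52 genes did not pass the test. The counts by role are to be read against all tested genes, of which 13.9% were higher and 14.0% lower. Ly96, Cd36, Ticam1, Nos2 and Ube2v1 were not analysed here.

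Of 4 co-receptor and ligand-binding genes tested, 1 was higher. This was Cd14, which delivers lipopolysaccharide to Tlr4, with 282, 245, 287 and 288 CPM in CNT-7 rats 3, 5, 10 and 11 and 201, 228, 181 and 190.3 CPM in CNT-T rats 1, 2, 12 and 13. The groups were apart (log2 fold change 0.46, standard error 0.092, adjusted p = 0.0071, edgeR). Cd180, a relative of Tlr4 without a signalling domain, averaged 20.9 ± 7.09 CPM after CNT-7, against 33.7 ± 11.4 CPM in CNT-T rats (SD, n = 4 each), with an adjusted p = 0.104 (edgeR). Of 16 genes for the folding, transport and processing of the receptors and of their nucleic acid ligands, 2 were higher, 1 was lower and 13 did not pass. Unc93b1, the transporter of the endosomal receptors, averaged 210.3 ± 20.5 CPM after CNT-7, against 216 ± 30.8 CPM in CNT-T rats, and the 95% confidence interval of its log2 fold change was from -0.29 to 0.21. Higher were Pld3, an endolysosomal nuclease (log2 fold change 0.41, adjusted p = 0.021), and Slc15a4, an endolysosomal transporter needed for Tlr7 and Tlr9 signalling (0.41, adjusted p = 0.035). Ctss, which encodes cathepsin S, was lower (-0.30, adjusted p = 0.088, all from edgeR). The call of Ctss was lost in 7 of 13 alternative fits, namely with the term for rat numbers and without CNT-7 rat 3, 5 or 10 or CNT-T rat 1, 2 or 12, with adjusted p-values of 0.106 to 0.21 (edgeR).

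Of 5 adaptor genes tested, 3 were higher, against 13.9% of all genes, and 2 did not pass. Myd88 had 77.2, 81.3, 87.4 and 69.4 CPM in CNT-7 rats 3, 5, 10 and 11 and 65.0, 60.3, 57.1 and 57.5 CPM in CNT-T rats 1, 2, 12 and 13. The groups did not overlap (log2 fold change 0.39, standard error 0.083, adjusted p = 0.0092, edgeR). Pik3ap1, the adaptor that links Toll-like receptors to phosphoinositide 3-kinase, reached 148 to 163 CPM after CNT-7, against 91.6 to 102 CPM in CNT-T rats (log2 fold change 0.69, adjusted p = 0.00031, edgeR). Scimp, a transmembrane adaptor, was higher with a log2 fold change of 0.90 (adjusted p = 0.034, edgeR), although CNT-7 rat 5 lay among the CNT-T rats. The adaptors Tirap and Ticam2 had log2 fold changes of 0.16 and 0.12 and did not pass.

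Of 18 kinase and ubiquitin ligase genes tested, 3 were higher and 15 did not pass. Higher were the ubiquitin ligase Peli1 (log2 fold change 0.60, adjusted p = 0.0044), the kinase Map3k8 (0.55, adjusted p = 0.035) and Ikbkg, the regulatory subunit of the IkappaB kinase (0.22, adjusted p = 0.079, all from edgeR). The call of Ikbkg was lost in 7 of 13 alternative fits, namely without the filter and without CNT-7 rat 3, 5 or 10 or CNT-T rat 2, 12 or 13, with adjusted p-values of 0.125 to 0.197 (edgeR). The shared kinases and ligases Irak1, Irak4, Traf6, Map3k7 and Tbk1 had log2 fold changes between -0.054 and 0.18. Of 7 transcription factor genes, 1 was lower and 6 did not pass. Irf8, a factor of myeloid cells that also takes part in Toll-like receptor signalling, had 20.9, 23.4, 17.5 and 35.4 CPM in CNT-7 rats 3, 5, 10 and 11. It had 123, 80.1, 75.5 and 85.2 CPM in CNT-T rats 1, 2, 12 and 13, and the groups were far apart (log2 fold change -1.90, standard error 0.23, adjusted p = 0.00072, edgeR). Nfkb1, Rela, Rel, Irf3, Irf5 and Irf7 had log2 fold changes between -0.16 and 0.21.

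Of 11 inhibitor genes tested, 5 were higher after CNT-7, against 13.9% of all genes, and 6 did not pass. Socs1, an inhibitor of cytokine signalling, had 2.14, 2.71, 3.94 and 4.02 CPM in CNT-7 rats 3, 5, 10 and 11 and 0.91, 0.65, 0.30 and 0.46 CPM in CNT-T rats 1, 2, 12 and 13. The groups did not overlap (log2 fold change 2.45, standard error 0.36, adjusted p = 0.0018, edgeR). In the CNT-T rats Socs1 had 28, 22, 9 and 13 counts, so that the size of its rise rests on few counts there. Tnfaip3, which encodes the ubiquitin-editing enzyme A20, reached 14.9 to 22.0 CPM after CNT-7, against 7.12 to 9.59 CPM in CNT-T rats (log2 fold change 1.08, adjusted p = 0.0011, edgeR). Its binding partner Tnip1 (log2 fold change 0.75) and Zc3h12a, which encodes the RNase regnase-1 (0.88), each had an adjusted p = 0.0024 (edgeR). Irak3, the kinase-dead relative of Irak1, was the last of the 5 (0.26, adjusted p = 0.076, edgeR) and was named after its values were seen. Its call was lost in 7 of 13 alternative fits, namely without the filter and without CNT-7 rat 3, 5 or 11 or CNT-T rat 2, 12 or 13, with adjusted p-values up to 0.198 (edgeR). Nfkbia, Tollip, Cyld, Rnf216 and Nrros had log2 fold changes between -0.036 and 0.063.

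Of 10 inducible target genes tested, 1 was higher, 2 were lower and 7 did not pass. Il1b was the higher one, with 1.48, 1.78, 1.62 and 0.90 CPM in CNT-7 rats 3, 5, 10 and 11 and between 0.13 and 0.38 CPM in the CNT-T rats (log2 fold change 2.61, standard error 0.39, adjusted p = 0.0020, edgeR). In CNT-T rats 1, 2, 12 and 13, Il1b had 4, 13, 8 and 4 counts. It passed the filter on low counts through the CNT-7 rats, so that the size of its rise is uncertain. Il1b was named after its values were seen. Lower were Cd86, a costimulatory ligand (-0.57, adjusted p = 0.021), and the neutrophil chemokine Cxcl2 (-1.40, adjusted p = 0.074, both from edgeR). The log2 fold change of Cxcl2 was -0.74 without CNT-T rat 13, which had 68.9 CPM, and its adjusted p-value was then 0.19 (edgeR). The call was also lost without CNT-7 rat 3, 10 or 11 or CNT-T rat 2 and with the term for rat numbers. Tnf averaged 2.03 ± 0.76 CPM after CNT-7, against 2.79 ± 0.55 CPM in CNT-T rats, and did not pass. Il6, Il10, Il12b, Ccl5, Ptgs2 and Ifnb1 had at most 25 counts in any rat and were below the filter, with 0 counts of Il12b and Ifnb1 in all rats.

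**Figure D4:**
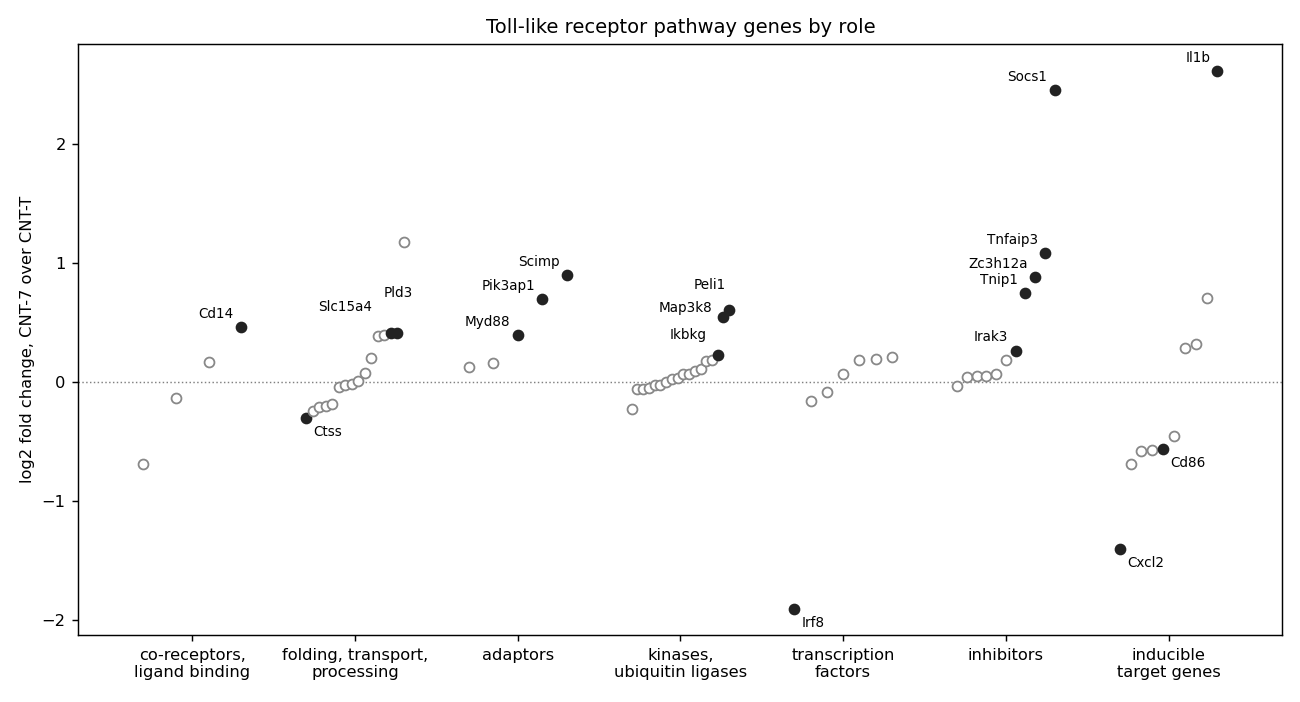
Log2 fold change (CNT-7 against CNT-T) of the 71 tested pathway genes, 1 point per gene, by role on the horizontal axis. Filled, named points passed an adjusted p-value under 0.10 and open points did not, and Socs1 (2.45), Il1b (2.61) and Irf8 (-1.90) lie farthest from 0.

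The sorted cells held the macrophage genes Cd68, Csf1r, Adgre1, Mertk, Fcgr1a, Lyz2, Cd163 and Gata6 in every rat. Their sum ran from 15216 to 22288 CPM after CNT-7, against 24117 to 34319 CPM in CNT-T rats, and Lyz2 made up 86.3% of it. Of the 8 genes, Cd68, Csf1r, Adgre1, Fcgr1a and Cd163 were significantly lower after CNT-7, with log2 fold changes from -1.69 to -0.33, and Gata6 was higher (0.30, adjusted p = 0.042, edgeR). In the flow cytometry of the study, macrophages were the cells with high CD11b/c and dim His48 staining, and neutrophils and monocytes fell in frames of their own. The stains used to sort the RNA samples are not given in the sources used here. The study assessed the purity of the sorted macrophages by Diff-Quick staining. How much of either other cell type was left in the RNA samples was not tested here. B cells are known for Tlr1 and Tlr9. Their marker Cd79a, a part of the B cell receptor found through its RefSeq synonym Cd79al, had 3.15, 6.53, 2.74 and 4.24 CPM in CNT-7 rats 3, 5, 10 and 11, and 10.9, 10.3, 8.31 and 3.83 CPM in CNT-T rats 1, 2, 12 and 13. The groups overlapped through CNT-T rat 13, and Cd79a was significantly lower after CNT-7 (4.17 CPM on average, against 8.34 CPM after CNT-T, adjusted p = 0.077, edgeR). Cd79b, Ms4a1, Pax5 and Cr2 were below the filter, and their few counts went the other way. Their means were 0.34, 0.13, 0.034 and 0.12 CPM after CNT-7, against 0.14, 0.033, 0 and 0.017 CPM after CNT-T.

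Neutrophils, which carry Tlr2, were examined by 9 markers, whose sum was 33.9, 58.9, 63.0 and 43.5 CPM in CNT-7 rats 3, 5, 10 and 11 and 68.5, 26.2, 35.9 and 38.3 CPM in CNT-T rats 1, 2, 12 and 13. The groups overlapped, Csf3r made up 84.3% of the sum, and Mpo had 0 counts in all rats. S100a8 was the 1 marker of the 9 that passed, and it was lower after CNT-7 (log2 fold change -1.46, adjusted p = 0.016, edgeR), at 1.34 to 3.25 CPM against 4.19 to 9.03 CPM in CNT-T rats. Csf3r, S100a9 and Cxcr2 had log2 fold changes of 0.39, 1.23 and 1.26, Elane had -0.68, and none of them passed. Ltf, Camp and Mmp8 were below the filter, with higher means after CNT-7. Conventional dendritic cell markers summed to 18.0, 19.1, 14.4 and 13.4 CPM in CNT-7 rats 3, 5, 10 and 11 and to 15.7, 11.4, 9.89 and 7.34 CPM in CNT-T rats 1, 2, 12 and 13, with Batf3 the most abundant of the 6. Among them Ccr7, Clec9a and Batf3 were significantly higher after CNT-7, with log2 fold changes of 3.80, 1.76 and 0.78 (adjusted p = 0.011, 0.026 and 0.046, edgeR). Zbtb46, at 5.41 CPM on average, did not pass (-0.22, adjusted p = 0.65, edgeR), and Flt3 and Xcr1 were below the filter. In the CNT-T rats Ccr7 lay at 0 to 0.27 CPM and Clec9a at 0.15 to 0.56 CPM. Both passed the filter on low counts through the CNT-7 rats, so that the size of their rise is uncertain. Plasmacytoid dendritic cells, known for Tlr7 and Tlr9, had at most 6 counts of Siglech in any rat. Their 6 markers summed to 738 to 1017 CPM after CNT-7, against 627 to 912 CPM in CNT-T rats, and Bst2 made up 90.2% of the sum. Of the 6, Tcf4 passed and was higher after CNT-7 (log2 fold change 0.81, adjusted p = 0.0055, edgeR), at 20.5 to 32.2 CPM against 12.6 to 14.4 CPM in CNT-T rats. T cell markers summed to 5.32, 11.3, 6.46 and 4.20 CPM in CNT-7 rats 3, 5, 10 and 11, all above the 3.75 to 4.14 CPM of the CNT-T rats. Lck made up 58.7% of this sum and did not pass (log2 fold change -0.25, adjusted p = 0.55, edgeR). Cd2 was the 1 T cell marker that passed and was higher after CNT-7 (log2 fold change 3.48, adjusted p = 0.00070, edgeR). It had 2.22 CPM on average after CNT-7, against 0.19 CPM (0.098 to 0.30) in CNT-T rats. Cd2 passed the filter on low counts through the CNT-7 rats, so that the size of its rise is uncertain. Natural killer, mast and mesothelial cell markers each summed to at most 3.32 CPM in any rat, with 0 counts of Gzmb, Upk3b and Wt1 in all rats. The eosinophil sum was 9.33 CPM in CNT-7 rat 3 and at most 0.67 CPM in the other rats, with 0 counts of Epx and Prg3 in all rats. Of the monocyte markers, Ly6c was significantly lower after CNT-7 (log2 fold change -2.59, adjusted p = 0.011, edgeR). Cd226 and Cx3cr1 were significantly higher, with log2 fold changes of 3.10 and 4.12 (adjusted p = 0.027 and 0.00059, edgeR). Vcan did not pass (0.26, adjusted p = 0.50, edgeR). Cd226 lay at 0.072 to 2.42 CPM in CNT-T rats and Ly6c at 0.072 to 1.74 CPM in CNT-7 rats. Each passed the filter on low counts through the group where it was high, so that the size of its difference is uncertain. Cx3cr1 ran from 40.0 to 144 CPM after CNT-7, against 3.29 to 6.77 CPM in CNT-T rats, and was highest in CNT-7 rat 10, as were Tlr2, Tlr8 and Tlr13. The part of these cell types in the differences of the Toll-like receptor genes was not tested.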

How the data were processed

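RNA of sorted peritoneal macrophages was sequenced in 8 rats, placed in the CNT-7 and CNT-T groups by the sample titles. The authors quantified the reads with Salmon against Ensembl rat cDNA sequences (Rnor_6.0) and imported the estimates with tximeta. The deposited values are estimated counts per gene, whole numbers without normalization. Salmon's version is not given in the sources used here. No length was used, so levels are compared only within a gene.

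The counts were tested with the quasi-likelihood method of edgeR 4.0.16 in R 4.3.3, with TMM normalization, the default filter (minimum count of 10, minimum total of 15) and Benjamini-Hochberg adjustment over 12124 genes, and genes were called below 0.10, the threshold of the study. CPM values use TMM-normalized library sizes, and centred profiles use log2 CPM with a prior count of 2. Each standard error was derived from the F statistic of its gene. The floor of 3 counts covers counting error only.

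The members and lists were chosen with earlier results of these data known. All 10 receptors are named. Of the pathway genes, up to 4 per role are named, those with the largest absolute log2 fold change among significant genes with a mean of at least 1 CPM, and Cd14, Ly96, Unc93b1, Myd88 and Ticam1 whatever their values. Irak3, Il1b and the pathway genes that did not pass are named outside this rule, chosen after their values were seen. Some marker genes are not reported here.

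Alternatives were DESeq2 1.42.0, upper-quartile normalization, omission of the filter, a minimum of 10 counts in each rat, a term for the range of the rat numbers, thresholds of 0.05 or of a 2-fold change, and each rat left out in turn. The procedure was tested on simulated data.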

Additional observations from a re-analysis of the deposited data

Results flagged for a closer look

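Among 54 sets of 4 rats examined with Dixon's test, 2 held a rat far from its group, and chance alone marks about 5% of such sets. CNT-7 rat 5 had the lowest Cd14 level of its group, 245 CPM (gap over range 0.87), the others having 282 to 288 CPM. CNT-T rat 13 had the highest Pik3ap1 level of its group, 102 CPM (gap over range 0.85), the others having 91.6 to 93.2 CPM. No Toll-like receptor gene was marked in this way.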

How the results depend on the processing

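Tlr1, Tlr2 and Tlr13 kept their direction and their adjusted p-value under 0.10 in all 13 alternative fits, as did Cd14, Myd88, Pik3ap1, Scimp, Peli1, Map3k8, Pld3, Slc15a4, Irf8, Tnfaip3, Tnip1, Zc3h12a and Cd86. Tlr5 and Tlr6 kept their direction and stayed above the threshold. When a 2-fold change was also required, 1006 of 3383 genes, 0 of 4 Toll-like receptor genes and 5 of 19 pathway genes were left, as this adds a condition to the test. With each rat left out, between 2578 and 3515 genes, between 3 and 5 Toll-like receptor genes and between 15 and 22 pathway genes passed. Tlr4 lay between -0.19 and 0.022 on the log2 scale in these fits. The calls of Ctss, Ikbkg, Irak3 and Cxcl2 were lost in 7, 7, 7 and 6 of the 13 fits, with adjusted p-values up to 0.21, 0.20, 0.20 and 0.19 (edgeR), and the cause was not tested. Socs1 and Il1b stayed significant in the 12 fits that held them, and the minimum of 10 counts in each rat removed both. No paired analysis was possible because the rat numbers of both groups differ throughout. The range of the rat numbers (up to 5, or from 10) as a term gave 6 Toll-like receptor genes, with Tlr3 and Tlr7 added. Depth limits Tlr9, Tlr11 and Tlr12, which the filter on low counts removed, and without that filter Tlr9 differed by 0.79 on the log2 scale (standard error 0.84, adjusted p = 0.58, edgeR).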
